A study of Homo sapiens with 6 samples.

Results

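The insulin-like growth factor axis was followed in T3M4 cells, a long-established line from a human pancreatic ductal adenocarcinoma, through 10 genes, all of them found among the 16617 genes of the authors' deposited table. They are IGFL1, the binding protein genes IGFBP2, IGFBP3, IGFBP4 and IGFBP6, the receptor genes IGF1R, IGF2R and INSR, and the docking protein genes IRS1 and IRS2. The set was fixed by gene symbol, and IGFL1 was chosen by its log2 fold change in this same comparison (log2 change below, sgMETTL13 over sgControl), the highest among the 8309 abundant genes, those whose mean of both group averages is no lower than the median of 205 reads. Its values therefore describe it and test nothing; the others were joined to it by name, with results of these data already known. RNA was sequenced from 6 libraries in 2 groups, 3 from cells that carried a guide RNA against METTL13 (sgMETTL13, genotype METTL13 knockdown in the labels) and 3 from cells with a control guide (sgControl, genotype WT). METTL13 is a methyltransferase of the translation elongation factor eEF1A, and both groups were grown in DMEM with fetal bovine serum, which brings growth factors of its own, and penicillin/streptomycin. The deposited table holds a mean per group and the authors' own comparison, so values of single libraries are not given below and no SD could be formed; how many clones or cultures stand behind each group is not stated in the labels, and p-values then measure only the spread between these libraries, which may be technical.

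In this axis, IGF1 and IGF2 act through the receptor tyrosine kinase IGF1R, and insulin, with IGF2, through its relative INSR. IGF2R carries no kinase and takes IGF2 to lysosomes. The secreted IGF-binding proteins hold IGFs in the medium and can limit or prolong their action, and IRS1 and IRS2 dock the activated receptors to PI3K and to the AKT and mTORC1 pathways. IGFL1 is a small secreted, cysteine-rich protein of a family named for its likeness to the IGFs; the known receptor of its family is IGFLR1, not IGF1R. Through PI3K and AKT this axis favours growth and survival in many epithelial tumours, those of the pancreas included.

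The 2 promoters shown here belong to IGFL1 and IRS2, the ligand and the docking protein with called rises, and were chosen, after their values were seen, as a window poor and a window rich in CG dinucleotides. Each is the stretch of 250 bases before the RefSeq gene start on the gene's own strand (GRCh38.p14), chr19:46229492-46229741 on the plus strand for IGFL1 and chr13:109786584-109786833 on the minus strand for IRS2, with CG dinucleotides in capitals.
IGFL1: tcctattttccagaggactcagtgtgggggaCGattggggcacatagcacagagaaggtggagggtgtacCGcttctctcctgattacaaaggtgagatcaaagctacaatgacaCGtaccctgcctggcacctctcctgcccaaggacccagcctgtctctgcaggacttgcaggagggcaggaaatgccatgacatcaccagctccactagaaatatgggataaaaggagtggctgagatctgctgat
IRS2: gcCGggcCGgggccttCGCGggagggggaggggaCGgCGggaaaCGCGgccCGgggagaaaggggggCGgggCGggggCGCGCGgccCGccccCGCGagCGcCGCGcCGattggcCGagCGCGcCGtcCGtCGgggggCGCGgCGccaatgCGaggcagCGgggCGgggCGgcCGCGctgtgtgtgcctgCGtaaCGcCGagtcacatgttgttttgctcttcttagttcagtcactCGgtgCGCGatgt

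The IGFL1 window holds 3 CG dinucleotides at a GC content of 52.8%, and the IRS2 window 42 at 76.4%. Over 35116 promoter windows of the same length the median is 11 CG dinucleotides at 58% GC, and 22.9% of the windows have fewer than IGFL1. All 10 genes have at least 1 window in the RefSeq table, 12 windows in all, since IGFBP2 has 3. IGFL1 has the fewest CG dinucleotides of the 12, IGFBP6 has 9, IGFBP3 has 32 and IGF1R the most with 48. The GC box GGGCGG, read on both strands, is in no place in the IGFL1 window, in 5 places in the IRS2 window and in at least 1 window of each of the other 8 genes; 42.6% of all windows hold it. The forkhead motif GTAAACA occurs once among the 12 windows, in IGFBP6, against 2.98% of all windows. By the GENCODE 29 gene starts this motif and most of the IGFBP6 window lie inside the gene. So do the IGFBP3 window and the later windows of IGFBP2. The core TGACNNNGC of the antioxidant response element occurs once, in IRS2 (10.9% of all windows), and TATAAA once, in IGFBP4 (10.7% of all windows). The AP-1 motif TGACTCA, which can share its first 4 letters with TGACNNNGC, is in none of the 12 and in 4.20% of all windows. These matches describe letters in a window and carry no evidence of binding.

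The knockdown is visible in the targeted gene: METTL13 averaged 5.63 TPM in sgMETTL13 cells and 39.9 TPM in sgControl cells according to the authors' deposited table. Average reads per library summed to 15247500 in sgMETTL13 and 15240866 in sgControl. The 6 epithelial markers EPCAM, KRT7, KRT8, KRT18, KRT19 and CDH1 were all present, with the lowest at 49.6 TPM in sgMETTL13 and 53.7 TPM in sgControl, and summed to 4602 and 4739 TPM in these groups. The 3 endothelial markers summed to 1.44 TPM in sgMETTL13 and 2.04 TPM in sgControl. The 5 measured fibroblast markers summed to 17.3 TPM in sgMETTL13 and 17.2 TPM in sgControl, mostly COL1A1 and LUM. Of the leukocyte list CD68, also a lysosomal protein of other cells, was measured, at 44.1 TPM in sgMETTL13 and 40.9 TPM in sgControl. No marker of these lists was called by the authors' deposited table.

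In sgMETTL13 cells IGFL1, IGFBP6 and IRS2 transcripts rose, IGFBP3 fell, and the 3 receptor genes were not called, with log2 changes between -0.035 and 0.051, by the authors' deposited table. In RNA from whole cultures a change in the share of cells that make a transcript and a change per cell cannot be told apart. A gene is called here when the adjusted p (the deposited q-value) is under 0.05. Of the 10 genes 3 were called higher and 1 lower by the authors' deposited table, where 3.80% of all genes were called, 2.73% higher and 1.08% lower. That share rests on all 16617 genes, and among the 8309 abundant genes 7.04% were called. Of the 10 genes 7 are abundant, INSR lies just under the median at 194.5 mean reads, and IGFBP2 and IGFBP4 lie far below. The median log2 change of the 10 was 0.27, against 0.0014 over all genes, by the authors' deposited table. Because IGFL1 was picked for its rise, neither the count nor the median is support for a shift of the axis.

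**Figure D1:**
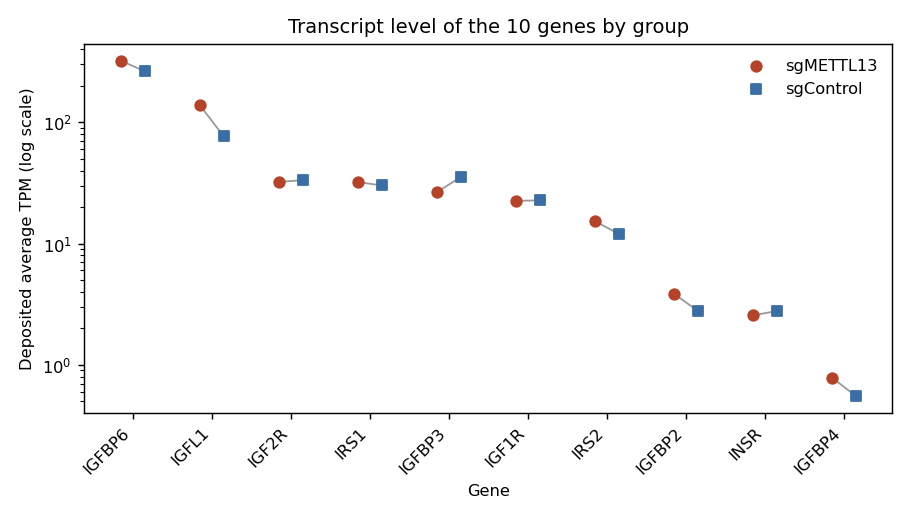
Average TPM of the 10 genes (log axis) in sgMETTL13 (circles, left of each pair) and sgControl (squares, right), ordered by level in sgMETTL13. Each point is the authors' mean over a group, so no error bars can be drawn. IGFBP6 and IGFL1 stand at the top and IGFBP4 at the bottom in both groups, and the pair of IGFL1 is the steepest among the abundant genes.

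The ligand-like gene IGFL1 (Entrez gene 374918) averaged 138 TPM in sgMETTL13 cells and 76.6 TPM in sgControl cells by the authors' deposited table. In reads this was an average of 748 per library in sgMETTL13 against 409 in sgControl, or 2244 against 1227 reads over the libraries of each group. The log2 change of IGFL1 by the authors' deposited table was 0.92 (1.89-fold) with an adjusted p of 3.39e-19. The size of a fold change and its p together imply a standard error, 0.095 on the log2 scale for IGFL1, with a 95% interval from 0.74 to 1.11. Counting noise in these reads alone would give a standard error of 0.051, so the error behind the deposited p is 1.85 times the counting error. IGFL1 moved up in the transcriptome as a whole, with 93.1% of genes below it by TPM in sgMETTL13 and 87.5% in sgControl. Among called genes of any abundance 3 had a higher log2 change than IGFL1, none of them abundant.

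IGFL1 lies on chromosome 19 at 46229752 to 46231243, plus strand (GRCh38, GENCODE 29), in a group with its relatives IGFL2, IGFL3 and IGFL4. An exon of the unnamed antisense transcript AC006262.3 overlaps an exon of IGFL1 in GENCODE 29. No use of strand in counting is stated, so whether reads of the pair were kept apart is not known. IGFL2, a secreted relative whose start lies 86.65 kb upstream of that of IGFL1, averaged 5.43 TPM in sgMETTL13 and 4.48 TPM in sgControl, and its log2 change of 0.38 (95% interval from 0.057 to 0.71) did not pass the test (adjusted p = 0.245) by the authors' deposited table. IGFL1 was 25.4 times IGFL2 by TPM in sgMETTL13 and 17.1 times in sgControl. IGFL3 had 1 read over the sgMETTL13 libraries and 0 over the sgControl libraries, too few for a fold, and IGFL4 is not among the rows of the table. Within 400 kb of IGFL1 lie 20 other protein-coding genes, of which 15 are in the table. Of the 15, 0 were called by the authors' deposited table, where 3.80% of all genes and 7.04% of abundant genes were called. At such shares a count of 0 among 15 genes is no result about the neighbours. The 5 abundant genes among these, among them SYMPK, PPP5C and CALM3, had log2 changes from 0.014 to 0.15 by the authors' deposited table. NOVA2, the 1 neighbour drawn with a fold change above that of IGFL1 (1.13 by the authors' deposited table), had 17.7 mean reads and an interval from 0.21 to 2.06.

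**Figure D2:**
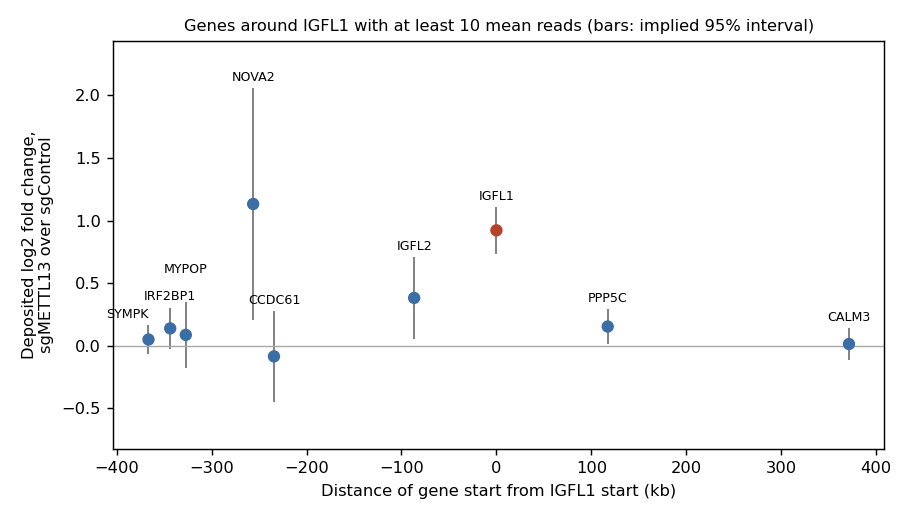
Deposited log2 fold change (sgMETTL13 over sgControl) of the genes around IGFL1 that have at least 10 mean reads, against the distance of their starts from the start of IGFL1 in kb. Bars are implied 95% intervals. IGFL1 stands at 0.92 while the abundant neighbours PPP5C, CALM3 and SYMPK stand between 0.014 and 0.15, with IGFL2 between them at 0.38.

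By size of change, the genes nearest to IGFL1 among the abundant ones were SPRR1B, AKR1C2, AKR1C1, NDUFA4L2 and NPTX1, at log2 changes of 0.89, 0.80, 0.79, 0.79 and 0.78 by the authors' deposited table. The likeness is the difference in log2 change, 0.036 for SPRR1B and 0.14 for NPTX1, over 2 group means only, and says no more than that these genes changed by a like amount. SPRR1B encodes a precursor of the cornified envelope, AKR1C1 and AKR1C2 aldo-keto reductases, and NPTX1 a neuronal pentraxin. No gene lies within 0.03 of IGFL1 in this ranking, which has it at its upper end.

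Among the IGF-binding proteins the most abundant, IGFBP6, rose and IGFBP3 fell. IGFBP6, which binds IGF2 with preference over IGF1, averaged 322 TPM in sgMETTL13 cells and 264 TPM in sgControl cells, the highest level of the 10 genes in both groups. Its reads summed to 6746 over the sgMETTL13 libraries and 5445 over the sgControl libraries. The log2 change of IGFBP6 was 0.36 (1.28-fold, implied 95% interval from 0.24 to 0.49) with an adjusted p of 3.16e-06 by the authors' deposited table. With a trend in transcript GC content and length removed, and the implied error kept, it was 0.24 and still called (adjusted p = 0.0106). IGFBP3, the main carrier of IGFs in blood, averaged 26.6 TPM in sgMETTL13 and 35.3 TPM in sgControl. Its reads summed to 1597 over the sgMETTL13 libraries and 2090 over the sgControl libraries. The log2 change of IGFBP3 was -0.34 (0.792-fold, implied 95% interval from -0.51 to -0.16) with an adjusted p of 0.00617 by the authors' deposited table. The implied intervals of IGFBP6 and IGFBP3 lie on opposite sides of 0 and do not overlap.

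The remaining binding proteins gave no call. IGFBP2 averaged 3.85 TPM in sgMETTL13 and 2.79 TPM in sgControl, with 116 reads over the sgMETTL13 libraries and 72 over the sgControl libraries. Its log2 change of 0.74 had a wide implied interval, from 0.061 to 1.42, and an adjusted p of 0.316 by the authors' deposited table; by the ratio of TPM it was 0.47, and 0.36 with a pseudocount of 1 TPM added to both averages. At its standard error of 0.346 a change of IGFBP2 would need to reach 1.08 on the log2 scale to be called. IGFBP4 averaged 0.783 TPM in sgMETTL13 and 0.553 TPM in sgControl, on 40 reads over the sgMETTL13 libraries and 28 over the sgControl libraries. Its interval ran from -0.60 to 1.73, and at this depth a rise or fall of IGFBP4 would need to reach 1.85 on the log2 scale to be called. Of the binding protein genes outside the 10, IGFBP7, which binds IGFs weakly and insulin, averaged 174 TPM in sgMETTL13 and 181 TPM in sgControl, with a log2 change of 0.017 and an interval from -0.12 to 0.15 by the authors' deposited table. IGFBP5 had 22 reads over the sgMETTL13 libraries and 36 over the sgControl libraries, with an adjusted p of 0.875 by the authors' deposited table. IGFBP1, IGFALS and IGFBPL1 are not among the rows of the table.

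With levels per transcript length, IGFBP6 made up 91.1% of the summed TPM of IGFBP2 to IGFBP6 in sgMETTL13 cells and 87.1% in sgControl cells, while IGFBP3 made up 7.52% and 11.7% in these groups. The sum itself was 353 TPM in sgMETTL13 and 303 TPM in sgControl. IGFBP6 was 12.1 times IGFBP3 in sgMETTL13 and 7.46 times in sgControl. These shares come from group means and have no error of their own.

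The receptor genes gave no call, and 2 of them were measured closely. IGF1R had the same 4834 reads over the libraries of each group, with 22.5 TPM in sgMETTL13 and 22.7 TPM in sgControl. The log2 change of IGF1R was 0.051 with an implied interval from -0.083 to 0.18 (adjusted p = 0.942) by the authors' deposited table, where fold changes carry a scaling of 0.052 between the groups. IGF2R, with 10692 reads over the sgMETTL13 libraries and 10899 over the sgControl libraries, averaged 32.2 TPM in sgMETTL13 and 33.4 TPM in sgControl. Its log2 change was 0.024, with an implied interval from -0.090 to 0.14 and an adjusted p of 0.968 by the authors' deposited table. For both genes the sign turns with the scaling: IGF2R was -0.028 by the ratio of average reads and -0.050 by the ratio of TPM, and IGF1R -0.012 by the ratio of TPM. INSR was far lower, at 2.56 TPM in sgMETTL13 and 2.77 TPM in sgControl, with a log2 change of -0.035 and a wider interval from -0.33 to 0.26 (adjusted p = 0.968) by the authors' deposited table. IGF1R exceeded INSR 8.79 times by TPM in sgMETTL13 and 8.18 times in sgControl. IGFLR1, the receptor of the IGFL family, was measured with 74 reads over the sgMETTL13 libraries and 78 over the sgControl libraries. It averaged 2.15 TPM in sgMETTL13 and 2.203 TPM in sgControl, and its log2 change of -0.024 had an interval from -0.78 to 0.74 by the authors' deposited table. IGFL1 was thus far more abundant than the transcript of its receptor in both groups.

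Of the docking proteins IRS2 rose. IRS2 averaged 15.3 TPM in sgMETTL13 cells and 12.03 TPM in sgControl cells, with 2512 reads over the sgMETTL13 libraries and 1943 over the sgControl libraries. The log2 change of IRS2 was 0.42 (1.34-fold, implied interval from 0.22 to 0.63) with an adjusted p of 0.00292 by the authors' deposited table. An exon of the antisense transcript AL162497.1 overlaps an exon of IRS2, and whether reads of this pair were kept apart is likewise not known. By the ratio of average TPM the log2 change of IRS2 was 0.35 (adjusted p = 0.0249). With the pseudocount of 1 TPM it was 0.32 and no longer called (adjusted p = 0.0546). Both adjusted p-values set the altered fold change over the error implied by the deposited p, and the spread of TPM was not tested. IRS1 was the more abundant by TPM, 2.10 times IRS2 in sgMETTL13 and 2.504 times in sgControl. It averaged 32.2 TPM in sgMETTL13 and 30.1 TPM in sgControl, and its log2 change of 0.17 (implied interval from 0.019 to 0.32) did not pass the test (adjusted p = 0.284) by the authors' deposited table. The intervals of IRS1 and IRS2 overlap, and the difference between them was not tested.

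**Figure D3:**
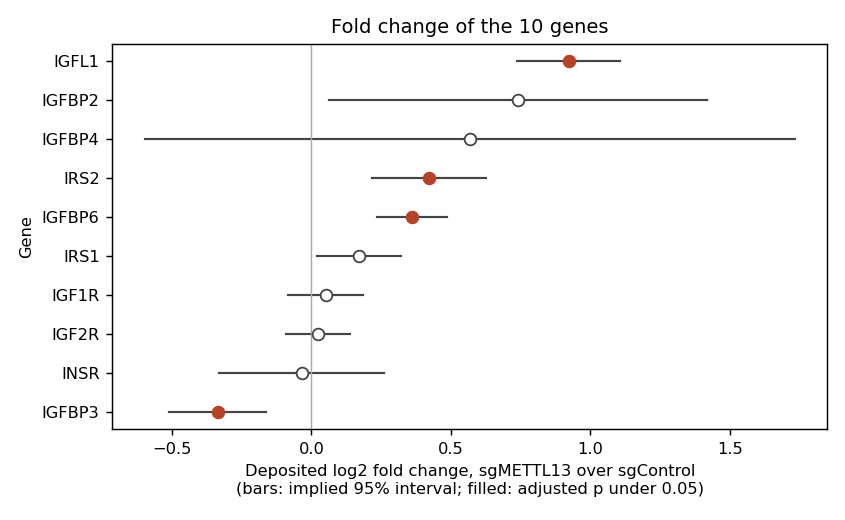
Deposited log2 fold change (sgMETTL13 over sgControl) of the 10 genes with implied 95% intervals, the highest at the top. Filled points have an adjusted p under 0.05: IGFL1 (0.92), IRS2 (0.42), IGFBP6 (0.36) and IGFBP3 (-0.34). The intervals of IGFBP2 and IGFBP4 are wide, and those of IGF1R and IGF2R are narrow and span 0.

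By level the 10 genes kept nearly the same order in both groups. In sgMETTL13 the order was IGFBP6, IGFL1, IGF2R, IRS1, IGFBP3, IGF1R, IRS2, IGFBP2, INSR and IGFBP4. In sgControl IGFBP3 stood at place 3, above IGF2R and IRS1, and the others kept their places. Neighbours between 22 and 36 TPM (IGF2R, IRS1, IGFBP3 and IGF1R) lie close together, and without values per library it cannot be said which of them differ in level. For every one of the 10 genes the reads summed over a group are whole numbers (within 0.005 of a read), which holds for 78.6% of all genes; none of the 10 therefore shows the fractions that arise where reads are divided between genes. The implied standard errors of the 10 were 0.93 to 1.199 times the median of the 200 genes nearest to each in read count, highest for IRS2. The ratio of reads to TPM, which moves when a gene's transcripts change in length, differed between the groups by 0.012 to 0.029 on the log2 scale for 9 of the genes, where the median of abundant genes was 0.022. For IGFBP2 it was 10.0 reads per TPM in sgMETTL13 and 8.61 in sgControl, a log2 difference of 0.22 that lies above the central 95% of abundant genes, from -0.040 to 0.071, at the low depth of IGFBP2 given above.

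**Figure D4:**
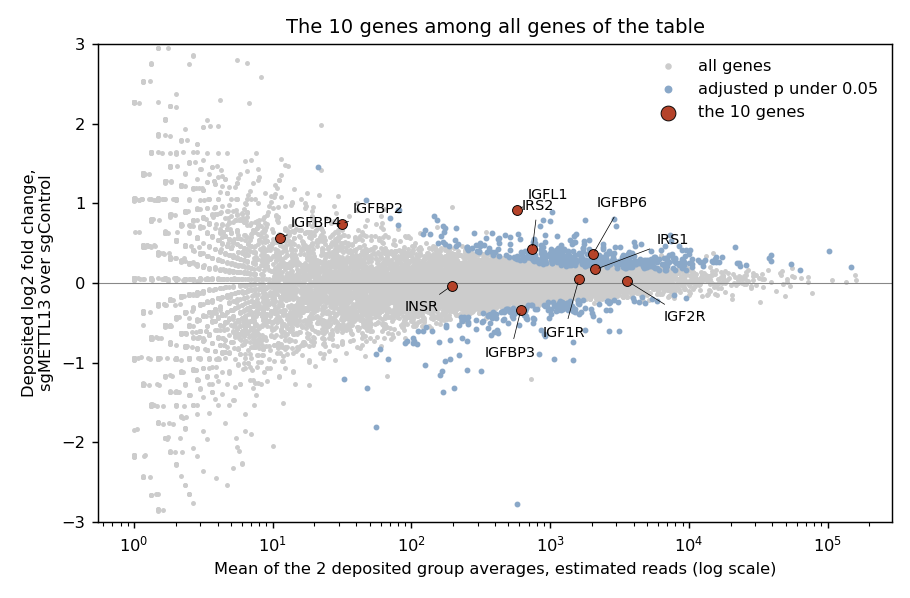
Deposited log2 fold change (sgMETTL13 over sgControl) against the mean of both group averages in estimated reads (log axis), with all genes in grey, called genes in blue and the 10 genes in red. Left out are 1705 genes under 1 mean read and 60 beyond the vertical range. IGFL1 lies at the upper edge at 578.5 mean reads, and IGFBP2 and IGFBP4 lie where the grey cloud is as wide as their own fold changes.

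The other genes of the pathway were taken as 9 lists by their known roles. Of 72 listed genes 67 were measured, and 8 were higher and 1 lower by the authors' deposited table (13.4%, against 3.80% of all genes); 45 of the 67 are abundant and hold all 9 calls. The median log2 change of the 67 was 0.017 by the authors' deposited table, close to the 0.0014 over all genes. The share is a description and was not tested. Several of the called genes, such as SOCS1, SOCS3 and TRIB3, also belong to other pathways, and no cause of the share was tested.

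Transcripts of the classical ligands were scarce. IGF2 averaged 1.73 TPM in sgMETTL13 and 1.89 TPM in sgControl, on 186 reads over the sgMETTL13 libraries and 201 over the sgControl libraries, with a log2 change of -0.060 by the authors' deposited table. IGF1 had 2 estimated reads over the sgMETTL13 libraries and 3.97 over the sgControl libraries, and INS is not among the rows of the table. None of the 4 measured ligand genes was called, beside 3.80% of all genes, and none of them is abundant. The receptor list, IGFLR1 and INSRR, had 0 of 2 called beside the same 3.80%, and neither gene is abundant. INSRR had 7 reads over the sgMETTL13 libraries and 4 over the sgControl libraries. At the deposited p alone, IGFL2 and none of the other genes of these lists was under 0.05 (p = 0.0213 by the authors' deposited table).

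The proteases that cut IGF-binding proteins, and the inhibitors of these proteases, held 2 calls among 8, both higher, by the authors' deposited table, where 3.80% of all genes and 7.04% of abundant genes were called; both are among the 4 abundant genes of the list. Both calls are stanniocalcins, secreted glycoproteins that inhibit the protease PAPPA. STC1 averaged 560 TPM in sgMETTL13 and 477 TPM in sgControl, a log2 change of 0.31 (adjusted p = 0.000221) by the authors' deposited table. STC2 averaged 95.5 TPM in sgMETTL13 and 79.6 TPM in sgControl, a log2 change of 0.34 (adjusted p = 6.41e-08) by the authors' deposited table. PAPPA itself, whose main target is IGFBP4, averaged 0.407 TPM in sgMETTL13 and 0.517 TPM in sgControl and was not called (adjusted p = 0.841) by the authors' deposited table. The metalloprotease gene ADAM9, next in abundance to these in its list, had a log2 change of 0.013 by the authors' deposited table.

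Among 13 adaptors and attenuators of the receptors 3 rose and none fell by the authors' deposited table, beside the 3.80% of all genes and 7.04% of abundant genes that were called; 10 of the 13 are abundant. SOCS1 and SOCS3, suppressors of cytokine signalling that also bind IRS proteins, had log2 changes of 0.63 (adjusted p = 2.03e-05) and 0.44 (adjusted p = 0.0184) by the authors' deposited table. SOCS1 averaged 50.9 TPM in sgMETTL13 and 34.6 TPM in sgControl. GRB10, an adaptor that binds and restrains IGF1R and INSR, averaged 25.2 TPM in sgMETTL13 and 21.9 TPM in sgControl, a log2 change of 0.27 (adjusted p = 0.0167) by the authors' deposited table. The most abundant adaptors were not called: the log2 change was 0.13 for SHC1, 0.072 for the phosphatase gene PTPN1 and -0.010 for PTPN11 by the authors' deposited table. GRB14, another adaptor that restrains INSR, was not called either, at 0.59 (adjusted p = 0.892) by the authors' deposited table. It had only 32 reads over the sgMETTL13 libraries and 22 over the sgControl libraries, with an implied interval from -0.64 to 1.82. SOCS3 and GRB10 lost the call in other settings, given in the closing section.

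Further down, the PI3K and AKT list had 1 of 16 called (6.25%) by the authors' deposited table, near the 7.04% called among abundant genes, which 11 of the 16 are. TRIB3, a pseudokinase that binds AKT and is induced by the ATF4 stress response, averaged 116 TPM in sgMETTL13 and 94.0 TPM in sgControl, a log2 change of 0.37 (adjusted p = 1.53e-06) by the authors' deposited table. The 3 most abundant genes of the list, PIK3R2, AKT1 and INPPL1, had log2 changes of 0.11, 0.029 and -0.049 by the authors' deposited table. None of these was called. The largest change among uncalled abundant genes of the list was -0.32, for PIK3R1 (adjusted p = 0.108 by the authors' deposited table). In the mTORC1 list, where 14 of 15 genes are abundant, 2 were higher and 1 was lower by the authors' deposited table, or 20% against the same 7.04%. The fall was RPS6KB1, the gene of the S6 kinase that phosphorylates ribosomal protein S6 and, in feedback, IRS1. RPS6KB1 averaged 18.1 TPM in sgMETTL13 and 25.6 TPM in sgControl, with 1675 reads over the sgMETTL13 libraries and 2321 over the sgControl libraries. Its log2 change was -0.42 (implied interval from -0.59 to -0.25, adjusted p = 0.000198) by the authors' deposited table, while its paralog RPS6KB2 stood at 0.11 (adjusted p = 0.559). EIF4EBP1, an inhibitor of the cap-binding factor eIF4E, and AKT1S1, an inhibitory mTORC1 subunit, had log2 changes of 0.20 (adjusted p = 0.0143) and 0.22 (adjusted p = 0.0319) by the authors' deposited table. Both lost the call with a trend in transcript GC content and length removed, at 0.063 for EIF4EBP1 and 0.12 for AKT1S1. MTOR itself was at -0.14 and TSC2, an inhibitor of the pathway, at -0.049 by the authors' deposited table, and neither was called.

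None of the 4 FOXO genes, transcription factors that AKT keeps out of the nucleus, was called, and 2 of the 4 are abundant. Over all genes 3.80% were called, and 7.04% of abundant genes, so 0 calls in a list this short is no result about it. FOXO3 stood at 0.080, FOXO1 at -0.063 and FOXO4 at 0.16 by the authors' deposited table. The 3 genes for the IGF2 mRNA-binding proteins, which bind IGF2 and many other mRNAs, are all abundant. They gave no call either, beside the same shares. IGF2BP1 came closest, with 23.1 TPM in sgMETTL13 and 27.9 TPM in sgControl and a log2 change of -0.20 (adjusted p = 0.056) by the authors' deposited table. IGF2BP2 and IGF2BP3 had log2 changes of 0.030 and -0.051 by the authors' deposited table. Of the 58 measured genes of all lists that were not called, 9 had a deposited p under 0.05, and the 36 abundant ones had log2 changes from -0.32 to 0.25 by the authors' deposited table.

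**Figure D5:**
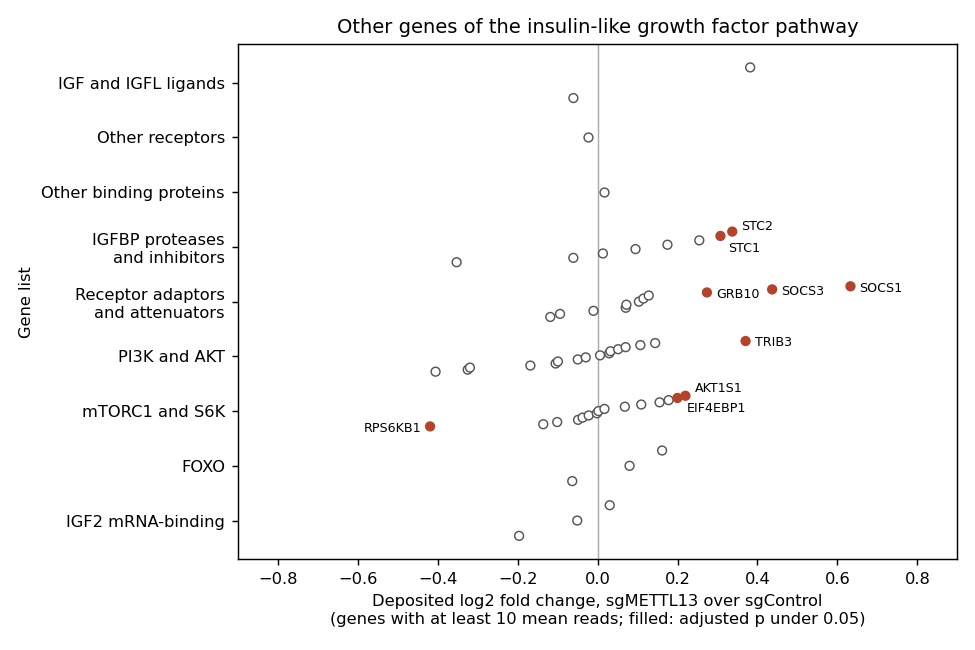
Deposited log2 fold change (sgMETTL13 over sgControl) of the 60 pathway genes outside the 10 that have at least 10 mean reads, by list. Filled points have an adjusted p under 0.05 and carry a name. SOCS1 lies farthest to the right of the filled points at 0.63, and RPS6KB1 is the single filled point left of 0 at -0.42. The lists of ligands, other receptors, other binding proteins, FOXO and IGF2 mRNA-binding proteins hold no filled point.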

How the data were processed

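The 10 genes and all lists were chosen with earlier results of these data known. Genes were named by fixed rules (all 10, called list members and the 3 most abundant of each list, METTL13, the 5 nearest to IGFL1). PAPPA, PIK3R1, RPS6KB2, MTOR, GRB14 and the neighbours of IGFL1 were named for context after their values were seen. Per the file headers the deposited table holds group averages of TPM, FPKM (not used here) and estimated counts of reads; it also gives a q-value, a p-value and a log2 fold change, KD over WT. The labels tie KD to sgMETTL13 and WT to sgControl. The tools, per the submitters' processing notes, were RSEM 1.2.12, Bowtie2 2.2.5, HISAT2 2.0.4 and an unnumbered DESeq2, with hg38 and GRCh38.p12. Both the strand setting and the test behind the p-value were not given in the sources used here.

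No value per library was used here, so no count model was fitted; the depth of single libraries is unknown. The implied standard error is the size of a deposited log2 change over the normal z of its two-sided p-value, and carries nothing beyond it. The error of counting alone takes the square root of the summed inverse read totals, and a callable change the largest called p, 0.00186. Intervals are at 95%. Alternatives were other thresholds and adjustments, read and TPM ratios, and removal of a spline trend (4 degrees of freedom) in GC content and length, for which GENCODE 29 gave 97.6% of genes. For every alternative fold change the implied standard error of the deposited comparison was kept, and p and its adjustment were recomputed from it. A call could then change only with the fold changes, and the spread of reads or TPM was not tested anew. Steps were tested on simulated data. Promoters came from RefSeq. Work was done in Python 3.11.15 (matplotlib 3.10.9, patsy 1.0.2, scipy 1.17.1, pandas 2.3.3, numpy 2.4.6).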

Additional observations from a re-analysis of the deposited data

How the results depend on the processing

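Each fold change setting kept the error implied by the deposited p, so calls gained or lost below reflect shifts of the fold changes alone. Within that limit the calls of IGFL1, IGFBP6 and IGFBP3 kept their direction and stayed under 0.05 in every such setting. That of IRS2 did so in all but the pseudocount of 1 TPM (0.32). For IGFL1 this is no support, since the gene was chosen by the same log2 change. Of the 10 genes 2 were called under Bonferroni, where IRS2 and IGFBP3 lost the call, and 1 with a fold change of at least 1.5, where IGFBP6 lost it too; of the other pathway genes 5 (STC1, STC2, SOCS1, TRIB3 and RPS6KB1) were called at q under 0.01 and 5, the same genes, under Bonferroni, and 1, SOCS1, with the fold minimum; of all genes 409, 180 and 76. The recomputed adjustment, q under 0.1, the restriction to abundant genes and the removal of the GC and length trend left all 4 calls among the 10; with the trend removed 6 pathway genes were called, and 432 of all genes (262 higher, 170 lower).

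Values near 0 changed sign without being called on either side. By the ratio of reads these were IGF2R (-0.028), IGFBP7 (-0.034), ADAM9 (-0.038), AKT1 (-0.023) and IGF2BP2 (-0.021). By the ratio of TPM, and of TPM with the pseudocount, they were IGF1R (-0.012 and -0.011), IGF2R (-0.050 and -0.048), IGFBP7 (-0.056 and -0.056), ADAM9 (-0.055 and -0.053), PTPN1 (-0.0016 and -0.0016), AKT1 (-0.046 and -0.046), FOXO3 (-0.012 and -0.011) and IGF2BP2 (-0.053 and -0.053). With the trend removed they were IGFBP7 (-0.024), AKT1 (-0.042) and PTPN11 (0.0024). SOCS3, AKT1S1 and EIF4EBP1 lost the call in the ratio and trend settings, SOCS3 at 0.38 by reads and 0.30 with the trend removed, and GRB10 in the ratio settings (0.20 to 0.22). IGF2BP1 was called by the ratio of reads (-0.25), by TPM (-0.27), with the pseudocount (-0.26) and when centred (-0.21). The cause was not tested.

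No paired analysis was possible because the table holds group means, and for the same reason no library could be left out; neither alternative was run. The implied error assumes a normal test, and 3 of the 10 genes lie below the median read count, where the median implied standard error was 0.574 against 0.089 above it.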
